A study of Mus musculus with 6 samples.

Results

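Keratin genes encode the intermediate filament proteins of epithelial cells. Their promoters were taken as the promoter rows of the array whose gene symbol is Krt followed by a digit, which gave 40 rows for 40 genes, of 26200 promoter rows with a value. By the family's numbering, 21 of them are type I genes, 18 are type II genes and Krt222 lies outside both ranges. By tissue, 10 were placed with the epidermal keratins, 17 with the hair keratins (10 of the hair shaft and 7 of the inner root sheath or companion layer), 4 with simple epithelia, 3 with mucosal or corneal epithelia and 6 with none of these. The rows of Krt10, Krt28 and Krt86 carry a keratin name only in the authors' peak lists, so each had a peak by construction. These 3 are described apart and enter no count or median of the 40 below.

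Chromatin came from C57BL/6J mouse keratinocytes, the main cells of the epidermis, harvested 4 days after confluent cultures were moved to high-calcium medium, which starts their terminal differentiation. Proteins were fixed to DNA with 2 mM disuccinimidyl glutarate (DSG), a protein-to-protein crosslinker, and then with 1% formaldehyde, and chromatin was sheared to 500 bp. An antibody to Plakoglobin was used for 3 arrays and an antibody to β-catenin for the other 3, numbered 1 to 3 within each antibody, with input DNA in the second channel of every array. Cells, medium and fixation were the same for both antibodies, arrays with a mock antibody were not analysed here, and the labels do not say that the arrays of an antibody came from separate cultures, so p-values measure only the spread between these arrays. A ChIP ratio is not a transcript level, so the identity of the cells could not be checked against marker expression.

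Keratin filaments are built from pairs of a type I and a type II protein, and the genes of each type lie together in a cluster, on chromosome 11 for type I and on chromosome 15 for type II in the mouse, with the type I gene Krt18 in the type II cluster. Basal keratinocytes make the pair Krt5 and Krt14, and cells that leave the basal layer switch to Krt1 and Krt10, while other pairs build the hair shaft and its sheaths. Plakoglobin and β-catenin are related proteins of cell junctions. Plakoglobin helps to anchor keratin filaments at desmosomes, and both proteins can bind TCF/LEF transcription factors.

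All values are log2 ratios of ChIP over input DNA, centred on the median of their array, so 0 is the array's median promoter and 1 is 2-fold above it. Arrays differed in spread: the interquartile range of all promoters was 0.722 and 0.706 on the arrays numbered 2, against 0.171 to 0.361 on the other 4. The authors listed 1739 to 2684 peaks on the Plakoglobin arrays and 330 to 1958 on the β-catenin arrays. Over all promoters, arrays of the same number were more alike (Spearman rho 0.347, 0.376 and 0.414) than arrays of the same antibody (-0.007 to 0.288).

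Of the 40 genes, 28 matched a promoter sequence in RefSeq (GRCm38.p6). The 250 bases before the RefSeq start site are printed for the matched promoters where a peak of the authors reached the start site deposited with the peaks. These are Krt20, Krt34, Krt42 and Krt73 with Plakoglobin, Krt31 and, of those named by the peak lists, Krt10 and Krt28 with β-catenin, and Krt27 with both. The RefSeq and deposited start sites need not be the same base, as at Krt42 and Krt27, so a peak need not touch the printed window. Krt17, with such a peak, had no matched sequence. Krt2 is added because it had no peak but holds a TCF/LEF motif. They run 5′ to 3′ on the strand of the gene, and capitals mark each TATAAA and, in Krt2, the ATCAAAG.
Krt20, chr11:99438154-99438403, minus strand: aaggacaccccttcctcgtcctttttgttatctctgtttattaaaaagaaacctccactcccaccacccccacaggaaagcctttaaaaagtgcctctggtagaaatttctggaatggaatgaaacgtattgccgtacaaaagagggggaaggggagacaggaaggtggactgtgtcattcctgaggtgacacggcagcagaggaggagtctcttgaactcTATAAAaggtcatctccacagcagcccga
Krt34, chr11:100041555-100041804, minus strand: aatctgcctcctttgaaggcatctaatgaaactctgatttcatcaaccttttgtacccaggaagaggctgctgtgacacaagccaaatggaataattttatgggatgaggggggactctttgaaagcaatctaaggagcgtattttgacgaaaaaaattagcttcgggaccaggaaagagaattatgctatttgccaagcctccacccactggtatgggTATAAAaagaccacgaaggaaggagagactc
Krt42, chr11:100269952-100270201, minus strand: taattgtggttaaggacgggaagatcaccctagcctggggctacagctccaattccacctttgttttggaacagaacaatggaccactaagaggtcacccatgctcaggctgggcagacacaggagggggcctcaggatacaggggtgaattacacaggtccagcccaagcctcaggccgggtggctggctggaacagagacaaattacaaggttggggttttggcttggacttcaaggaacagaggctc
Krt73, chr15:101802361-101802610, minus strand: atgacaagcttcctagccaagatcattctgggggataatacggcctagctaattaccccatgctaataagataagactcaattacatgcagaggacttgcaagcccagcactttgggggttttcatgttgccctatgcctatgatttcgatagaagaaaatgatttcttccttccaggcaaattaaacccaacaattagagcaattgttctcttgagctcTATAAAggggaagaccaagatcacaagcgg
Krt31, chr11:100050552-100050801, minus strand: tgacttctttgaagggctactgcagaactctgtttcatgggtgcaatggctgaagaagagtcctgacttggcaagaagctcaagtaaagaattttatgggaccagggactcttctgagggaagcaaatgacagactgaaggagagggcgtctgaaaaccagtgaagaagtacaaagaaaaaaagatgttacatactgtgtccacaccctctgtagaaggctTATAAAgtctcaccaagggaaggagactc
Krt10, chr11:99389365-99389614, minus strand: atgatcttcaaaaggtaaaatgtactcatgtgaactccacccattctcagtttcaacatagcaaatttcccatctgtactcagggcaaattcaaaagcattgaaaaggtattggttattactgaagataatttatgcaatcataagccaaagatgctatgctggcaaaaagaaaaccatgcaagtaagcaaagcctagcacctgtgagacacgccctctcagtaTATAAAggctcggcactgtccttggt
Krt28, chr11:99374904-99375153, minus strand: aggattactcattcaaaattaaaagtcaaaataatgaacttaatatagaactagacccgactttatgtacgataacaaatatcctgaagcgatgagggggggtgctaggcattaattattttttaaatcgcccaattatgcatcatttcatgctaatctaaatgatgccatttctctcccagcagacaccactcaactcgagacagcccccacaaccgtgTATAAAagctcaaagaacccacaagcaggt
Krt27, chr11:99351119-99351368, minus strand: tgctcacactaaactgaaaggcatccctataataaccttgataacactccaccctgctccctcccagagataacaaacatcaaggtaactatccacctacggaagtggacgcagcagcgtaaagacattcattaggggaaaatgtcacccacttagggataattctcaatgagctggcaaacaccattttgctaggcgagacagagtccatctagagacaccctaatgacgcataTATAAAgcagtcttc
Krt2, chr15:101818170-101818419, minus strand: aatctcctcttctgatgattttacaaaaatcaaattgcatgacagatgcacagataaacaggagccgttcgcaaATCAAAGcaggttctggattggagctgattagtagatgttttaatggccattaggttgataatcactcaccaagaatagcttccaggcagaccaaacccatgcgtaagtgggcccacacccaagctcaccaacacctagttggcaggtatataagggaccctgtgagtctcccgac

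The TATA motif, searched as TATAAA or its reverse complement TTTATA, was found before the start site in 12 of 29 member promoters (41.4%; Krt13 has 2 promoters) and in 12.4% of 32851 RefSeq promoters. Of the printed promoters Krt42 and Krt2 lack it, and in the other 7 it ends between 10 bases (Krt27) and 26 bases (Krt34) before the start site. The TCF/LEF motif, searched as CTTTGAT or its reverse complement ATCAAAG, was found in 2 member promoters, Krt2 and Krt90 (6.9%), against 3.21% of all. Neither Krt2 nor Krt90 had a peak. Other forms of the TCF/LEF site and genes without a matched sequence were not searched, so promoters with a peak may also hold such a site. The AP-1 motif TGANTCA, the same on both strands, was found in both Krt13 promoters, 6.9% of the member promoters against 6.75% of all. Matches describe the letters of these windows. Keratin promoters held fewer G and C bases than most: the median was 48.4% over 27 members with a single promoter sequence, against 56.4% over 10671 promoters on the array.

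High ratios at keratin promoters came from single arrays. A value of at least 1 was reached by 15 of 40 keratin promoters (37.5%) on exactly 1 of the 6 arrays, where 25.1% of all promoters did so, and by 0 of 40 on 2 or more arrays, where 4.48% did (2.2% on 2 or more Plakoglobin arrays and 0.195% on 2 or more β-catenin arrays). Of these 15 values, 13 were on Plakoglobin arrays and 2 on β-catenin arrays. Plakoglobin array 1 was high at Krt5, Krt20, Krt34, Krt72 and Krt82, array 2 at Krt9, Krt33a, Krt42 and Krt73, and array 3 at Krt6a, Krt25, Krt27 and Krt39. β-catenin array 1 was high at Krt31, array 3 at Krt17, and array 2 at no keratin promoter. At all promoters, values of at least 1 made up 8.32%, 10.7% and 5.21% with Plakoglobin, in the order of the numbers, and 1.24%, 3.27% and 5.95% with β-catenin. The map of all keratin promoters shows these values as isolated dark cells.

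**Figure D1:**
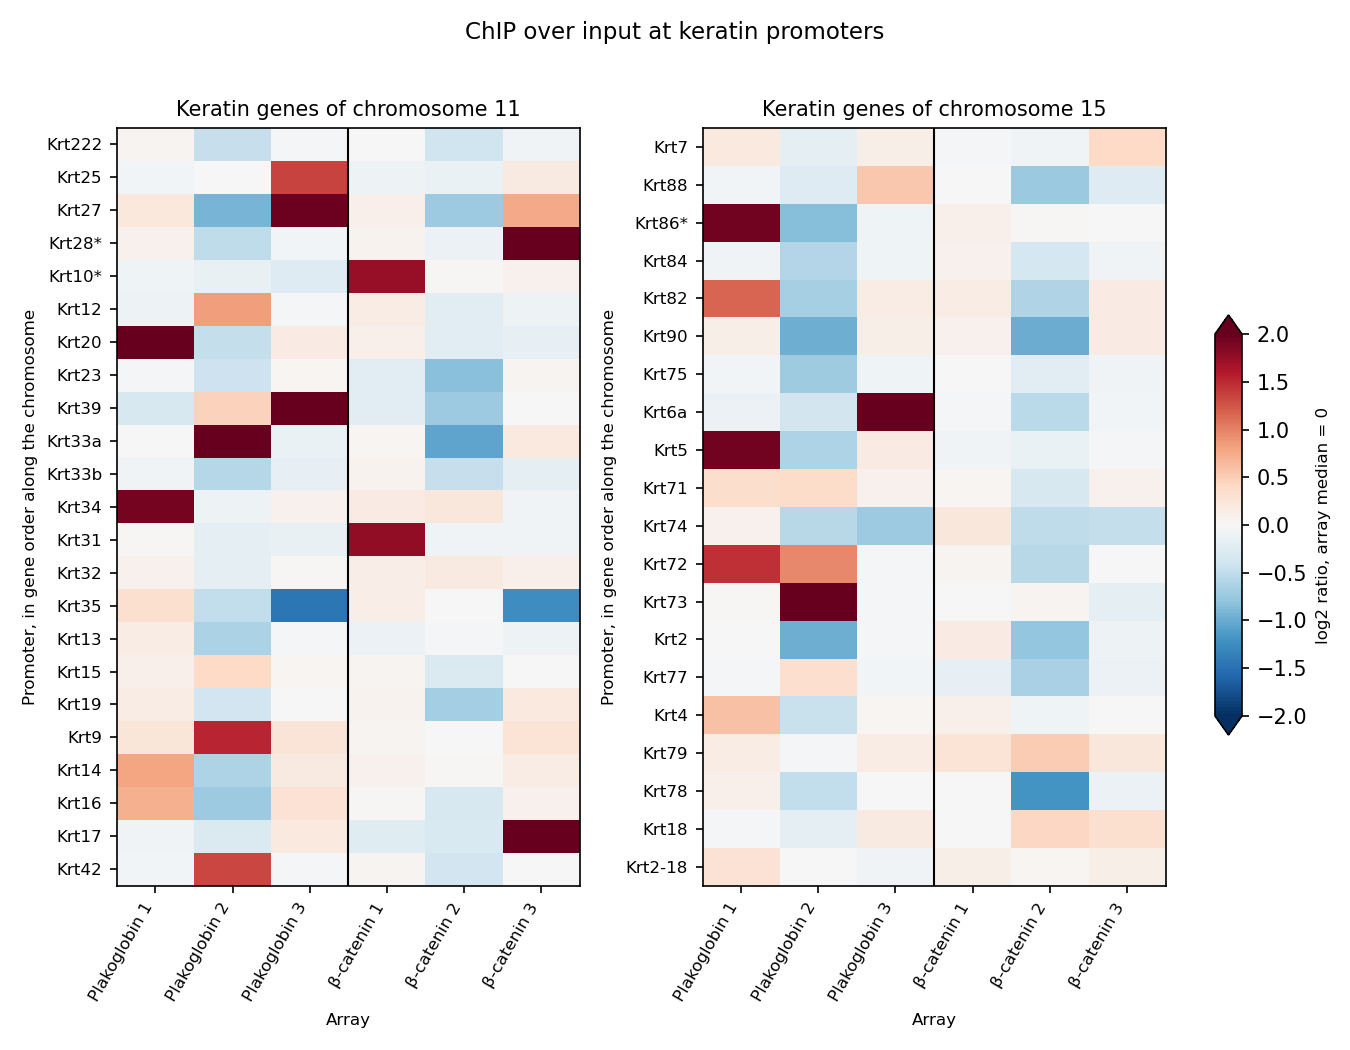
Centred log2 ratio of ChIP over input (colour, limits -2 and 2) at the keratin promoters (rows, in gene order along chromosomes 11 and 15; Krt2-18, which has no position in the RefSeq table, is placed last) on the 6 arrays (columns). An asterisk marks the 3 promoters named only by the peak lists. Of the 40 others, 15 reach 1, each on 1 array, and the columns of the arrays numbered 2 are mostly below 0.

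No keratin promoter passed limma's test in any comparison. Over the median promoter, 0 of 40 passed an adjusted p of 0.05 with Plakoglobin (lowest limma adjusted p = 0.696) and 0 of 40 with β-catenin (lowest limma adjusted p = 0.894), and over all 26200 promoters 0.0% passed with either antibody. At an unadjusted p under 0.05, 1 keratin promoter lay above the median promoter with Plakoglobin (Krt72), where 1.64% of all promoters did, and 0 lay below, where 2.14% did. With β-catenin 0 lay above and 0 below, against 0.26% and 1.5% of all. Means above 0 were found at 24 of 40 keratin promoters with Plakoglobin (60.0%, against 56.6% of all) and at 12 of 40 with β-catenin (30.0%, against 51.4%). On β-catenin arrays 1, 2 and 3, 29, 8 and 18 of 40 were above 0, and array 2 had the widest interquartile range of the 3. All 3 Plakoglobin arrays were above 0 at Krt9, Krt15 and Krt71, 3 of 40 (7.5%, against 16.8% of all), and all 3 β-catenin arrays at 6 of 40 (15.0%, against 16.3%).

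The basal pair was described first. Krt5, the type II keratin of basal cells, had Plakoglobin values of 1.93, -0.62 and 0.17 in the order of the array numbers, and β-catenin values of -0.06, -0.13 and -0.02. Its β-catenin values lay inside the range of its Plakoglobin values, and only Plakoglobin array 1 was high. Krt14, its type I partner, had 0.78, -0.62 and 0.18 with Plakoglobin, against 0.08, 0.03 and 0.15 with β-catenin, again with array 1 highest and array 2 lowest. The difference between the antibodies was 0.56 for Krt5 (SE 0.60, 95% interval -0.83 to 1.96) and 0.03 for Krt14 (SE 0.35, limma adjusted p = 1 for both). Without Plakoglobin array 1 the difference turned to -0.16 for Krt5 and to -0.31 for Krt14. Krt15, a keratin of the basal layer and the hair follicle bulge, had means of 0.18 ± 0.19 with Plakoglobin and -0.08 ± 0.18 with β-catenin (SD, n = 3).

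Krt10, the type I keratin of cells above the basal layer, had Plakoglobin values of -0.09, -0.15 and -0.26, and β-catenin values of 1.74, 0.03 and 0.08. The antibodies did not overlap, and β-catenin array 1, where the authors listed the peak that gave this row its name, stood far above the rest. The difference was -0.78 (SE 0.47, 95% interval -1.89 to 0.32, limma adjusted p = 1). Without each array in turn it ranged from -1.08 to -0.22. On β-catenin array 1 the median over the probes of this promoter was 0.33 where their mean was 1.74, both on the centred scale, and their SD was 2.40, so a part of the probes carried the high mean. The promoter of Krt1, its type II partner, was not analysed here.

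Other epidermal keratins showed the same kind of spread. Krt6a, a type II keratin induced in wounded epidermis, had -0.12, -0.37 and 2.64 with Plakoglobin, against -0.04, -0.54 and -0.06 with β-catenin. Krt17, a type I keratin also induced in wounds, had -0.07, -0.29 and 0.20 with Plakoglobin, against -0.24, -0.31 and 2.82 with β-catenin, the highest β-catenin mean of the family (0.76 ± 1.79). Both genes were high on an array numbered 3, Krt6a with Plakoglobin and Krt17 with β-catenin. Krt16, the usual partner of Krt6a, had 0.71, -0.72 and 0.30 with Plakoglobin, close to the values of Krt14, and 0.02, -0.32 and 0.08 with β-catenin. Krt9, a keratin of footpad epidermis, was above 0 on all 6 arrays, from 0.002 on β-catenin array 2 to 1.53 on Plakoglobin array 2. Krt2 of the upper layers had 0.01, -0.98 and -0.04 with Plakoglobin, the third lowest mean of that antibody, against 0.17, -0.78 and -0.10 with β-catenin, while Krt78 had the lowest β-catenin mean (-0.004, -1.20 and -0.12) and 0.11, -0.50 and 0.01 with Plakoglobin.

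**Figure D2:**
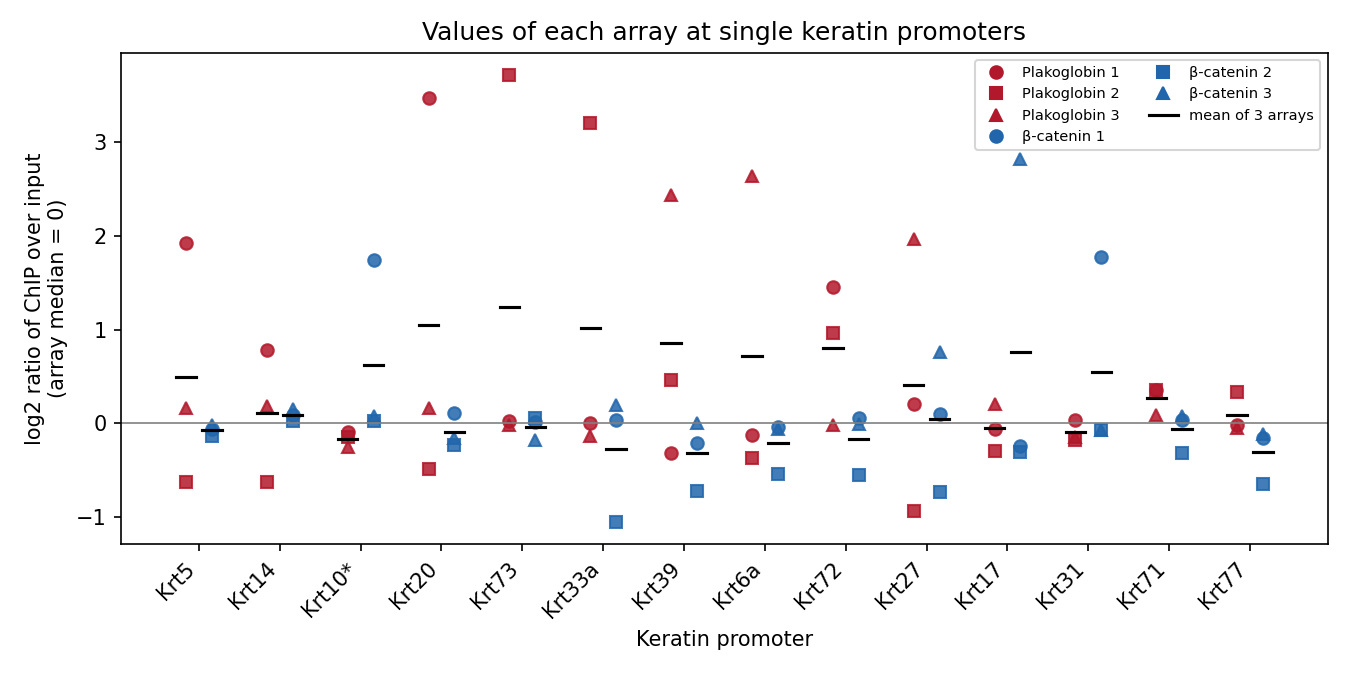
Centred log2 ratio of ChIP over input (vertical axis) on each array at 14 keratin promoters (horizontal axis), with Plakoglobin in red, β-catenin in blue, the array number as the shape of the point and the mean of 3 arrays as a bar; an asterisk marks a promoter named only by the peak lists. At most of these promoters the mean is set by 1 array, such as 3.72 for Krt73 on Plakoglobin array 2.

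The highest Plakoglobin means lay at keratins of hair and simple epithelia. Krt73, of the inner root sheath, had 0.03, 3.72 and -0.02 with Plakoglobin (1.24 ± 2.14), against 0.01, 0.06 and -0.17 with β-catenin. Krt20, a keratin of intestinal epithelium and other simple epithelia, had 3.48, -0.48 and 0.16 with Plakoglobin (1.05 ± 2.13), against 0.11, -0.23 and -0.16 with β-catenin. Krt33a, of the hair shaft, had -0.002, 3.20 and -0.14 with Plakoglobin (1.02 ± 1.89), against 0.04, -1.05 and 0.20 with β-catenin. At each of these genes the SD over the arrays was larger than the mean, and the high array was array 2 for Krt73 and Krt33a and array 1 for Krt20. Krt39, also of the hair shaft, had -0.32, 0.47 and 2.43 with Plakoglobin (0.86 ± 1.42), against -0.215, -0.73 and 0.003 with β-catenin. At Krt73 the probes of the promoter were high together on array 2, with a probe median of 3.98 and an SD over probes of 0.56, and at Krt20 the probe median on array 1 was 4.22 with an SD of 1.83. At Krt34, a hair shaft gene with 1.92, -0.10 and 0.09 on the Plakoglobin arrays, the probe median on array 1 was 0.23.

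The lowest means lay at hair keratins and at the epidermal Krt2 and Krt78. Krt35, of the hair shaft, had 0.33, -0.50 and -1.45 with Plakoglobin, against 0.14, -0.001 and -1.24 with β-catenin. Its mean was the lowest of the family with Plakoglobin (-0.54 ± 0.89) and the second lowest with β-catenin (-0.37 ± 0.76), and the arrays numbered 3 were low with both antibodies. Krt74, of the inner root sheath, had 0.09, -0.55 and -0.73 with Plakoglobin, against 0.23, -0.50 and -0.48 with β-catenin, so its values went with the array number as well. Krt88, placed with the hair shaft genes among which it lies, had -0.05, -0.26 and 0.54 with Plakoglobin, against -0.01, -0.75 and -0.26 with β-catenin, the third lowest β-catenin mean.

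The comparison of the antibodies called no keratin promoter either: 0 of 40 passed an adjusted p of 0.05 (limma adjusted p = 1 for each), against 0.0% of all promoters, and 0 of 40 reached an unadjusted p under 0.05, against 0.569% higher and 0.16% lower with Plakoglobin among all. The mean was higher with Plakoglobin at 25 of 40 (62.5%, against 51.6% of all). The smallest p belonged to Krt72 of the inner root sheath, with 1.46, 0.97 and -0.02 on the Plakoglobin arrays and 0.06, -0.55 and -0.01 on the β-catenin arrays. Its difference was 0.97 (SE 0.44, limma adjusted p = 1). Plakoglobin arrays 1 and 2 were above all 3 β-catenin arrays, and Plakoglobin array 3 lay among them. Krt77, a keratin of suprabasal epidermis and sweat ducts, had -0.02, 0.34 and -0.05 with Plakoglobin, against -0.16, -0.65 and -0.12 with β-catenin, a difference of 0.40 (SE 0.21, limma adjusted p = 1). Krt71, of the inner root sheath, had 0.36, 0.36 and 0.09 against 0.04, -0.32 and 0.08, a difference of 0.34 (SE 0.21, limma adjusted p = 1). At Krt77 and Krt71 every Plakoglobin array was above every β-catenin array, which held for 2 of 40 keratin promoters (5.0%) and 2.57% of all. That count was 8 without Plakoglobin array 2 and 4 without Plakoglobin array 3, β-catenin array 1 or β-catenin array 3. With an array left out non-overlap is easier by construction, and the share of 2.57% does not apply to these counts.

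In the other direction, the smallest p values came from promoters with and without a single high array. Krt31, of the hair shaft, had 0.03, -0.18 and -0.14 with Plakoglobin, against 1.78, -0.08 and -0.07 with β-catenin, a difference of -0.64 (SE 0.51, limma adjusted p = 1). Krt18, a type I keratin of simple epithelia, had -0.04, -0.20 and 0.19 against 0.002, 0.41 and 0.33, a difference of -0.26 (SE 0.22, limma adjusted p = 1). Krt79 had 0.14, -0.04 and 0.15 against 0.27, 0.51 and 0.23, a difference of -0.25 (SE 0.24, limma adjusted p = 1). Unlike Krt31, Krt79 was higher with β-catenin without a single high array, and its 3 β-catenin values all lay above its Plakoglobin values. The difference was -0.81 for Krt17 (SE 0.82, limma adjusted p = 1). Every β-catenin array was above every Plakoglobin array at Krt79 and at the hair shaft gene Krt32, 2 of 40 (5.0%, against 2.57% of all). The count was 5 without Plakoglobin array 1, where non-overlap is easier by construction and no share over all promoters is given. Of the promoters named by the peak lists, Krt28 had 0.09, -0.51 and -0.05 against 0.06, -0.12 and 1.99 (difference -0.80), and Krt86 had 1.94, -0.85 and -0.08 against 0.11, 0.02 and 0.01 (0.29).

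**Figure D3:**
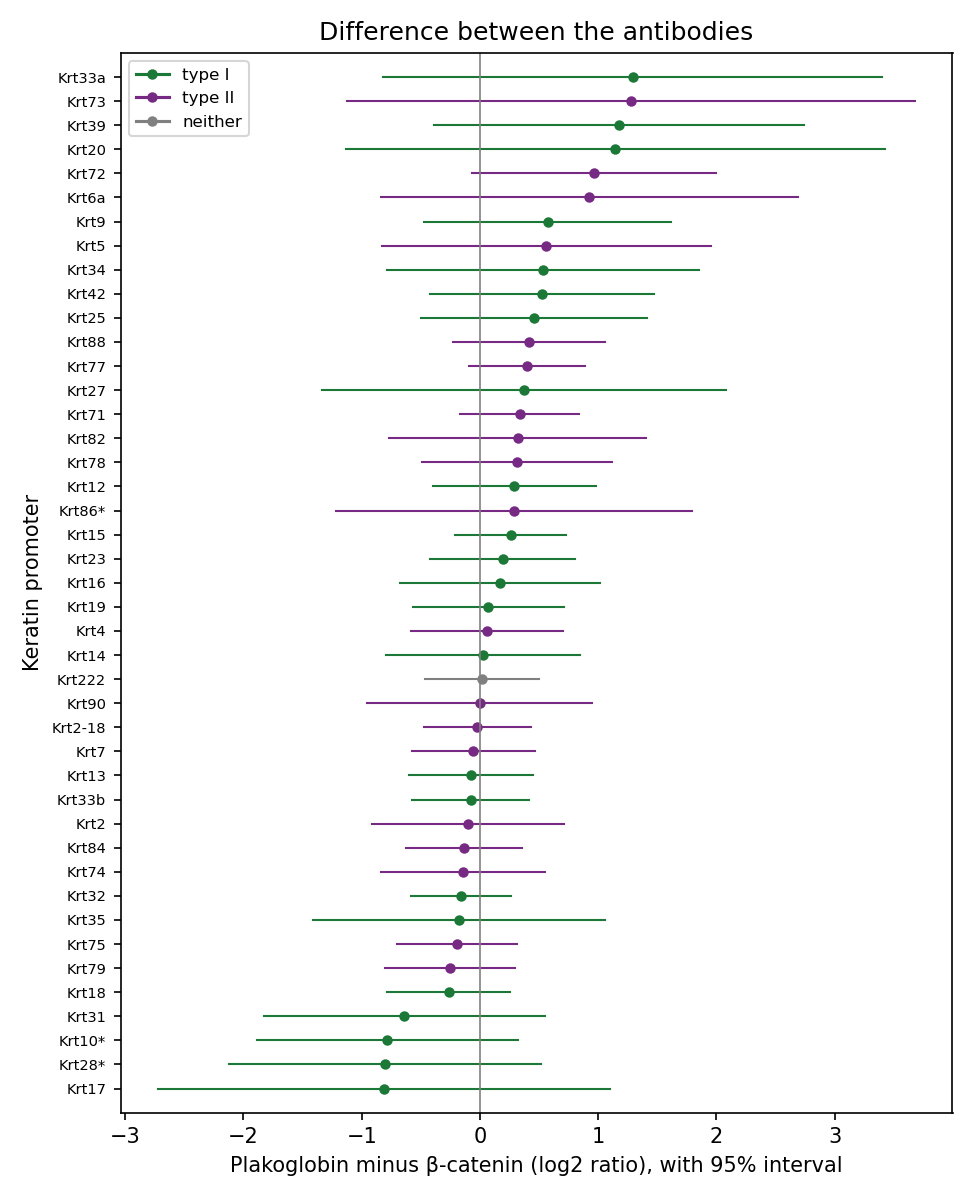
Plakoglobin minus β-catenin (horizontal axis, log2 ratio) from limma at each keratin promoter (rows, sorted), as points with 95% intervals, coloured by keratin type; an asterisk marks promoters named only by the peak lists. Every interval includes 0, from Krt17 (-0.81) to Krt33a (1.29).

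The authors' peaks were called on the same arrays and are no independent evidence. A Plakoglobin peak was listed for 12 of 40 keratin genes on 1 of 3 arrays (30.0%, the same as the 30.0% of all accessions with 1 or more), and for 0 of 40 on 2 or more, against 4.41%. With β-catenin 3 of 40 had a peak (7.5%, against 13.4%) and 0 on 2 or more, against 0.711%. Any of the 6 lists held 14 of the 40 genes (35.0%, against 38.3%). Each Plakoglobin list held 4 of the 40 (10.0%), where 13.0%, 13.4% and 8.44% of all accessions were listed, and the β-catenin lists held 1, 0 and 2, where 2.42%, 2.38% and 9.33% were. Of the 15 values of at least 1, 14 had a peak on that array, the exception being Krt82 on Plakoglobin array 1. Scores are the authors' own and rank peaks within a list: Krt20 ranked 27 of 2524 on Plakoglobin array 1, Krt33a 82 of 2684 on array 2, Krt6a 111 of 1739 on array 3, and Krt31 and Krt10, with the same score, 41 of 436 on β-catenin array 1. The Krt6a peak is also listed under its neighbour Krt6b.

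Peaks were also placed relative to the start site of their gene, with too few intervals at keratin genes to compare the antibodies. At the 40 genes, 3 of 3 β-catenin intervals spanned the start site (Krt17, Krt27 and Krt31), where 31.4% of all pairs of a β-catenin peak and an accession did. Of 13 Plakoglobin intervals 5 did (Krt20, Krt27, Krt34, Krt42 and Krt73), against 28.5%, and 8 lay before it. No share over all pairs is given for intervals before the start site. On arrays 1, 2 and 3 the share of all pairs that spanned it was 32.7%, 27.2% and 23.6% with Plakoglobin. With β-catenin it was 40.4%, 58.8% and 22.7%. Of the genes named by the peak lists, the β-catenin intervals of Krt10 and Krt28 also spanned the start site, and the Plakoglobin interval of Krt86 lay before it. At Krt5 the Plakoglobin peak ran from 1290 to 571 bp before the start site (chr15:102193555-102194274 in the deposited coordinates, for which the sources used here name no build), and at Krt6a from 1290 to 921 bp before it. Krt27, of the inner root sheath, was the only keratin gene listed with both antibodies. Its peak over the start site ran from 200 bp before to 59 bp after it on Plakoglobin array 3 and from 200 bp before to 149 bp after it on β-catenin array 3, which share a number, and Plakoglobin array 3 had a further peak from 1260 to 801 bp before it. The ratios there were 0.21, -0.94 and 1.97 with Plakoglobin, against 0.09, -0.73 and 0.76 with β-catenin, lowest on the arrays numbered 2 and highest on those numbered 3 with both antibodies.

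**Figure D4:**
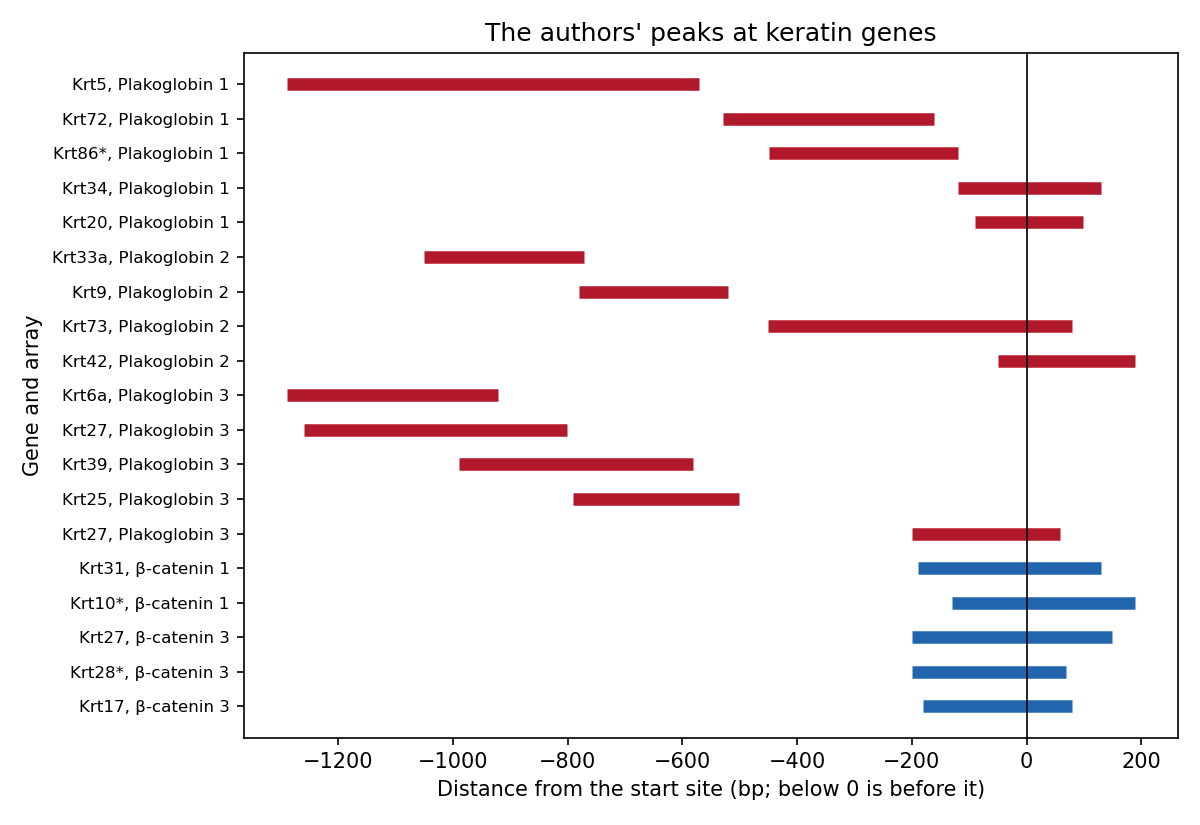
Position of the authors' peak intervals (bars; Plakoglobin in red, β-catenin in blue) relative to the start site (0 on the horizontal axis, bp) for each keratin gene and array; an asterisk marks genes named only through these lists. Without the genes marked by an asterisk, 3 of 3 β-catenin intervals and 5 of 13 Plakoglobin intervals span the start site. Over all pairs of a peak and an accession, 31.4% with β-catenin and 28.5% with Plakoglobin do.

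By the median over the family, keratin promoters lay near the array median except on the arrays numbered 2. The median over the 40 promoters reached 0.10, -0.33 and 0.04 in the Plakoglobin ChIPs, in the order of the numbers, and 0.05, -0.31 and -0.004 in those of β-catenin. On both arrays numbered 2, 23 of 40 keratin promoters (57.5%) were below 0, against 32.8% of all promoters. Without those arrays the mean of the medians was 0.07 with Plakoglobin and 0.02 with β-catenin. Krt90, of no tissue class, had 0.11, -0.98 and 0.11 with Plakoglobin, against 0.08, -0.99 and 0.16 with β-catenin, nearly the same values with either antibody. Across the 40 promoters, Spearman's rho between arrays of the same number was 0.337, 0.227 and 0.512, and between arrays of the same antibody it ran from -0.208 to 0.241. Between arrays unlike in both number and antibody it ran from -0.354 to 0.269. These describe the 40 promoters, which share arrays and clusters. Base composition also went with the ratios: over 10671 promoters rho between GC content and the ratio was 0.361, 0.051 and 0.223 with Plakoglobin, against 0.216, 0.235 and 0.208 with β-catenin, and its part in the low keratin values was not tested.

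Type I and type II promoters were compared by their medians on each array. Type I minus type II was -0.02, 0.21 and 0.02 with Plakoglobin (0.07 ± 0.12, SD, n = 3), against 0.002, 0.20 and 0.10 with β-catenin (0.10 ± 0.10), so the gap was no larger than its spread over arrays with Plakoglobin and as large as it with β-catenin. Without both arrays numbered 2 the mean gap was -0.003 with Plakoglobin and 0.049 with β-catenin. A value of at least 1 was found at 10 of 21 type I promoters (47.6%) and 5 of 18 type II promoters (27.8%), each on 1 array. Of all promoters, 25.1% had such a value on exactly 1 array and 4.48% on 2 or more. Peaks were listed for 8 type I and 4 type II genes with Plakoglobin, against 30.0% of all accessions. With β-catenin they were listed for 3 type I and 0 type II genes, against 13.4%. Means with β-catenin were above 0 at 8 of 21 type I and 4 of 18 type II promoters, against 51.4% of all. On β-catenin arrays 1, 2 and 3, 16, 5 and 12 of 21 type I promoters were above 0, and 12, 3 and 6 of 18 type II promoters.

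The gap between epidermal and hair promoters took both signs. Epidermal minus hair was 0.07, -0.25 and 0.19 with Plakoglobin, against -0.06, 0.03 and 0.06 with β-catenin, and without both arrays numbered 2 the means were 0.13 and 0.00. Of 10 epidermal promoters 4 reached 1 on an array (Krt5, Krt6a, Krt9 and Krt17), and of 17 hair promoters 9 did, each on 1 array. Such a value was found on exactly 1 array at 25.1% of all promoters and on 2 or more at 4.48%. The inner root sheath and companion group had a mean above 0 at 5 of 7 promoters with Plakoglobin and 1 of 7 with β-catenin, and the hair shaft group at 5 of 10 and 3 of 10. Of all promoters, 56.6% and 51.4% had such a mean. On β-catenin arrays 1, 2 and 3, 6, 1 and 3 of those 7 were above 0, and 8, 2 and 4 of those 10. Simple epithelial keratins (Krt7, Krt18, Krt19 and Krt20) had a mean above 0 at 2 of 4 with each antibody, and the mucosal and corneal Krt4, Krt12 and Krt13 never reached 1.

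Crossing type with tissue, a split chosen after the values were seen, gave small groups. The median of the 5 epidermal type I promoters (Krt9, Krt14, Krt15, Krt16 and Krt17) was above that of the 5 epidermal type II promoters (Krt2, Krt5, Krt6a, Krt77 and Krt78) on all 6 arrays, by 0.23, 0.21 and 0.19 with Plakoglobin, against 0.08, 0.37 and 0.26 with β-catenin. With β-catenin the mean was above 0 at 0 of 5 epidermal and 0 of 8 hair promoters of type II, and at 3 of 5 epidermal and 4 of 9 hair promoters of type I. Krt2-18, of type II by its number and placed in no tissue class, had a β-catenin mean of 0.09 and is in none of these counts. Signs in the counted groups differed between arrays. On β-catenin arrays 1, 2 and 3, 7, 1 and 2 of the 8 hair type II promoters were above 0, and 1, 0 and 0 of the 5 epidermal ones. Of type I, 7, 2 and 5 of 9 hair and 4, 2 and 4 of 5 epidermal promoters were. All 3 β-catenin arrays were below 0 at 4 of 5 epidermal type II promoters, against 15.5% of all promoters and 6 of 40 keratin promoters. Some of these values lay close to 0, such as -0.004 for Krt78 on array 1, -0.016 for Krt5 on array 3 and -0.035 for Krt6a on array 1.

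**Figure D5:**
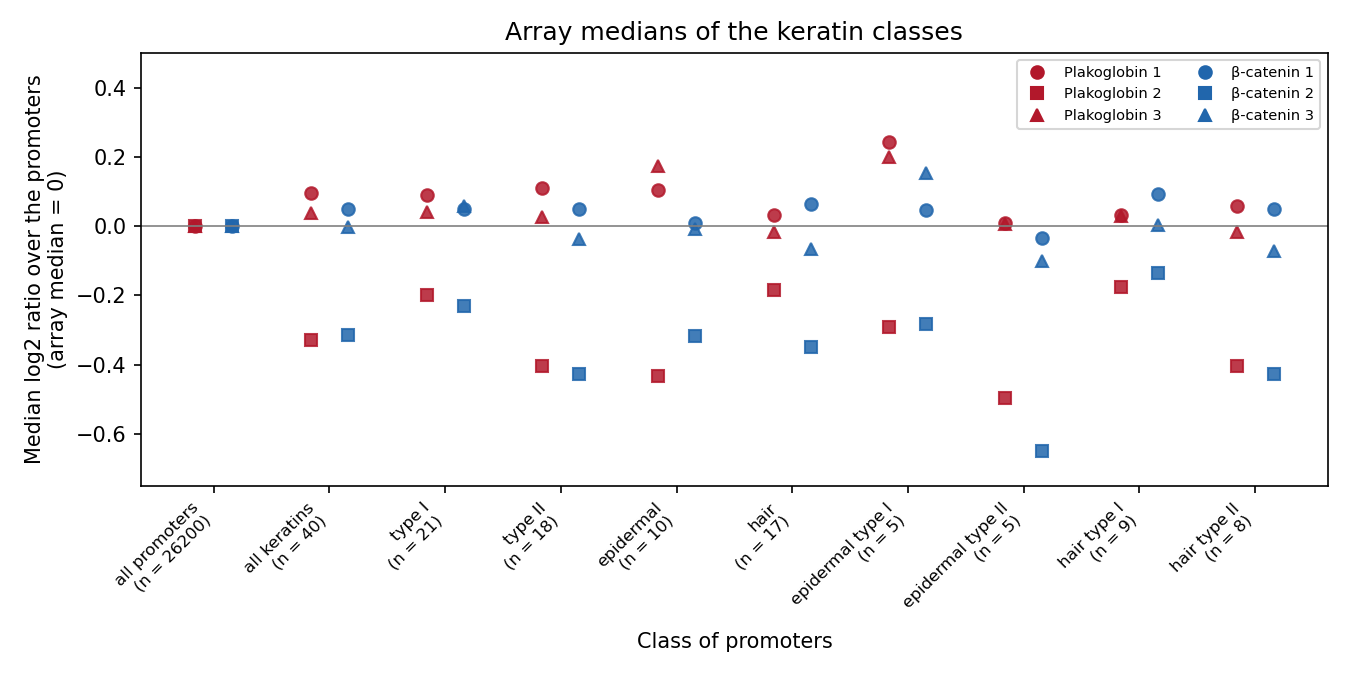
Median centred log2 ratio (vertical axis) of each class of keratin promoters and of all promoters (horizontal axis, with the number of promoters) on each array; Plakoglobin in red, β-catenin in blue, the array number as the shape. The arrays numbered 2 lie lowest in every keratin class drawn. Epidermal type I lies above epidermal type II on each array, in a split chosen after the values were seen.

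Genes that work with keratins were set beside them. Of the keratin-associated protein genes, whose products embed keratin filaments in the hair shaft, 26 promoters of 24 genes were measured. None passed in any comparison (0 of 26 at a limma adjusted p of 0.05), with 2 of 26 above the median promoter at an unadjusted p under 0.05 with Plakoglobin, where 1.64% of all promoters were. Their median was 0.04, 0.50 and -0.11 on the Plakoglobin arrays, where the keratins had 0.10, -0.33 and 0.04. By p for the difference, Krtap3-2 came first and was lower with Plakoglobin. It had -0.001, -0.59 and -0.325 with Plakoglobin, against 0.25, -0.27 and 0.425 with β-catenin (difference -0.44, SE 0.24). The next by p went the other way. Krtap26-1 had -0.27, 2.08 and 1.37 with Plakoglobin, against 0.15, -0.20 and -0.21 with β-catenin. Krtap5-1 had 0.23, 1.92 and 0.70 against -0.08, -0.18 and 0.41.

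The other lists also held no call, 0 of 14 promoters of other intermediate filament genes, 0 of 18 of proteins that bind keratin filaments and 0 of 21 of regulators of keratin genes at a limma adjusted p of 0.05 in any comparison, with 0 in each at an unadjusted p under 0.05. Of the regulators, 17 of 21 promoters had a β-catenin mean above 0 (81.0%), where 51.4% of all promoters and 12 of 40 keratin promoters did. On β-catenin arrays 1, 2 and 3, 14, 16 and 13 of the 21 were above 0. Trp63, the regulator of the epidermal lineage that drives Krt5 and Krt14, had -0.18, -0.34 and -0.02 with Plakoglobin, against -0.04, 0.12 and 0.88 with β-catenin (difference -0.50, SE 0.28, limma adjusted p = 1). Tfap2c, an AP-2 factor of keratinocytes, had 0.47, 0.17 and -0.20 against -0.10, -0.80 and -0.22 (0.52, SE 0.26, limma adjusted p = 1). Ppl, which encodes the filament linker periplakin, had 0.69, -0.12 and 0.16 against -0.01, -0.11 and 0.06. Pkp3 and Fam83h, next by p among the proteins that bind keratin filaments, went the other way. Their differences were -0.21 (SE 0.21) and -0.20 (SE 0.19).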

How the data were processed

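Promoter occupancy was measured with 2-channel NimbleGen arrays, ChIP DNA in Cy5 and input DNA in Cy3, per the labels. The deposited tables hold the log2 ratio per promoter row as the mean over its probes, with the median and SD over probes, per the file headers; the table of the whole series was identical to the mean tables (largest difference 0). The sources used here name neither the authors' normalization of the probe values nor the genome build of the coordinates. Per the file headers, peaks were called by the NimbleGen algorithm and deposited as 1 list per array without pooling, with a score of unstated scale and a false discovery rate (q-value).

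Of 26275 rows, 75 had no value and 26200 were used. Symbols came from a RefSeq table of GRCm38.p6: 32 keratin rows were named by accession, 7 by synonym and 1, Krt2-18, by the files alone, which puts it in type II by its number only. Each array was centred on its median. Group means over all 6 arrays were fitted in R 4.3.3 by limma 3.58.1 (functions lmFit and eBayes, the latter with trend, two-sided, Benjamini-Hochberg over 26200 rows, threshold 0.05); the program was tested on simulated data. An exact permutation test of 3 against 3 arrays cannot give p below 0.1, so none was run. The number of arrays limits the precision. Python 3.11.15, pandas 2.3.3, numpy 2.4.6 and matplotlib 3.10.9 did the rest.

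Deviations from the group mean correlated between arrays of the same number (0.203, 0.235 and 0.218 over all promoters). This link comes from the data, as the labels give no shared batch or pairing. The printed differences, SEs, intervals and p-values come from the fit without the number, except where the replicate block is named. With the block the median SE of the difference over all promoters was 0.224, against 0.289 without it. Alternatives were other centring and scaling, the probe median, no trend, the replicate block and leaving out each array, and, added after seeing the data, leaving out both arrays numbered 2 and adding the 3 promoters named by the peak lists.

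Values on every array are given for Krt5, Krt10 and Krt14, for the 4 highest and 3 lowest means per antibody, and for the 4 smallest p per direction, and for at most 3 genes per comparison list by smallest p; other values printed were chosen after they were seen. Members, classes and lists were chosen with earlier results of these data known.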

Additional observations from a re-analysis of the deposited data

Results flagged for a closer look

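Krt10 was singled out because its 3 Plakoglobin arrays were all below 0 and its 3 β-catenin arrays all above 0, with a difference of -0.78 (limma adjusted p = 1). The size rests mostly on β-catenin array 1: without that array the difference was -0.22. The row carries its name only through the peak on that array.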

How the results depend on the processing

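Of the alternatives run on each result, 185 values kept their direction and call or stayed within the spread, 12 moved and 6 reversed. With 3 arrays per antibody and no mock antibody, only differences well above the spread between arrays could have been called. In every alternative 0 keratin promoters passed in each of the 3 limma comparisons. With the replicate block the lowest limma adjusted p was 0.173, 0.296 and 0.89 for Plakoglobin, β-catenin and their difference. The block raised the keratin promoters with an unadjusted limma p under 0.05, in either direction, from 1 to 8 with Plakoglobin and from 0 to 7 with β-catenin. It takes the spread between the array numbers out of the SE, whose median over all promoters fell from 0.205 to 0.159 for each antibody. A mean of 1 antibody varies with that spread, so these counts are not read as calls. Over all 26200 promoters the lower calls rose with the block and the higher calls fell. With Plakoglobin they went from 429 higher and 561 lower to 268 and 2834. With β-catenin they went from 68 and 392 to 55 and 2414. The block changed no call at the adjusted threshold. Peaks on 2 or more arrays stayed at 0.

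The difference reversed for Krt5 to -0.157 without Plakoglobin array 1 (range over left-out arrays -0.157 to 1.119). For Krt14 it reversed to -0.005 with quantile normalization, -0.020 with the probe median, and -0.308, -0.008 and -0.004 without Plakoglobin array 1, Plakoglobin array 3 and β-catenin array 2 (range -0.308 to 0.394). Without centring, the family median was 0.225 with Plakoglobin and 0.169 with β-catenin, which carries the arrays' own medians. Promoters with all Plakoglobin arrays above all β-catenin arrays numbered 5 without centring, 2 to 8 without each array in turn and 8 without both arrays numbered 2; the opposite count was 1 without centring, 1 with the probe median, 2 to 5 without each array in turn and 4 without both arrays numbered 2. Fewer arrays make non-overlap easier by construction, and no share over all promoters is given for these settings. For the other shifts the cause was not tested. Without both arrays numbered 2 the family median was 0.068 with Plakoglobin and 0.023 with β-catenin.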
